A study of Mus musculus with 22 samples.

Results

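In bone marrow-derived macrophages of the mouse, 283 stretches of open chromatin were called in each control sample, in no sample given lipopolysaccharide (LPS), and again in each sample given LPS together with lactic acid. They were chosen by that pattern of presence: peaks of 12 ATAC-seq samples that shared at least 1 bp were merged into 127890 sites, and a site was kept where it held a peak in 3 of 3 control, 0 of 3 LPS and 3 of 3 LPS+LA samples. These returned sites are 0.221% of all sites. The pattern in those 9 samples is therefore the choice itself and not a finding, and what the choice did not use, the samples given lactic acid alone, the position of the sites and the RNA of the genes beside them, is described after it.

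Accessible sites outside promoters are mostly enhancers, where transcription factors hold nucleosomes away from DNA. In macrophages PU.1, the factor that sets the lineage, opens many of them together with AP-1, C/EBP and RUNX factors. LPS acts through the receptor TLR4, and within hours the factors NF-kB, AP-1 and IRF open a further set of enhancers while part of the resting set closes. Lactic acid, the end product of glycolysis, accumulates in inflamed tissue and is known to dampen inflammatory genes in macrophages.

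The cells were grown from C57/BL6 marrow for 7 days with L929 supernatant, a source of the macrophage growth factor M-CSF, and treated for 3 h. LPS+LA cells received 100 ng/ml LPS with 10 mM L-(+)-lactic acid (LA), LPS+HCl cells received LPS in medium brought to a low pH with hydrochloric acid (pH 6.5 is the example in the labels), LPS cells received 100 ng/ml LPS alone, LA cells received lactic acid alone at a dose that the labels do not state, and control cells received neither. ATAC-seq, which finds open chromatin by where a transposase can insert, was done on 50000 cells per sample in 4 groups of 3 (LPS+LA, LPS, LA, control), and RNA-seq in 5 groups of 2, LPS+HCl among them. Nothing in the labels says that replicates came from separate animals or cultures, so p-values measure the spread between these samples only.

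The peak lists held 85571 to 99435 peaks in LPS+LA, 88807 to 100667 in LPS, 76680 to 80820 in LA and 80386 to 86566 in control samples. Per the file headers the LPS+LA and LA samples ran in lane 6, and the LPS and control samples in lane 5, so lactic acid and lane cannot be told apart in the ATAC data, whereas LPS and control can be set side by side within a lane. The RNA libraries held 18668648 to 20219888 counts. All 8 macrophage markers were present, with summed levels of 13181 to 18968 CPM (counts scaled to a common library size) per library. Markers of T, B and NK cells, neutrophils, mast cells, erythroid cells and fibroblasts summed to at most 2.48 CPM per list in any library. Neuron markers summed to 20.1 CPM in LPS+HCl replicate 2 and 11.0 CPM in control replicate 1, against at most 4.56 CPM elsewhere.

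Only 9 of the 272 returned sites on chromosomes with a table of gene starts lay on a promoter, taken as 250 bases before to 50 after a start, and their sequences are the ones that can be shown here. Those 9 sites overlapped 10 promoters, of H4c12, 8030442B05Rik, Junos, Sh3bp2, Mad1l1, Epha1, Krtap5-4, Gm51667, Gm34106 and Rassf1. The 5 below are printed because they hold a match to an AP-1, PU.1 or E-box motif, marked in capitals on whichever strand it was found (RefSeq, GRCm38.p6, 5′ to 3′ on the strand of the gene). Junos, a transcript on the opposite strand at the Jun locus, has its promoter at chr4:95094563-95094862 on the plus strand. The promoter of 8030442B05Rik is at chr2:11398451-11398750 on the minus strand, and that of Krtap5-4, a keratin-associated protein gene, at chr7:142303252-142303551 on the plus strand. The promoter shown for Sh3bp2, an adaptor of tyrosine kinase signalling in myeloid cells, is at chr5:34549326-34549625 on the plus strand. It belongs to a start inside the gene, whose bounds are 34525784 and 34563639. The promoter shown for Mad1l1, a component of the spindle checkpoint, is at chr5:140174869-140175168 on the minus strand. It too belongs to a start inside the gene, whose bounds are 140008689 and 140321608.
Junos: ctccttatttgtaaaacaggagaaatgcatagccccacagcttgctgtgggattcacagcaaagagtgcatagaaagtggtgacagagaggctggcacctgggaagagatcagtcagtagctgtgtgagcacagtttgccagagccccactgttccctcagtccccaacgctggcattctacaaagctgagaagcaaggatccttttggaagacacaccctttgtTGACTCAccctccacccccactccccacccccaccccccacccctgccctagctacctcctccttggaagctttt
8030442B05Rik: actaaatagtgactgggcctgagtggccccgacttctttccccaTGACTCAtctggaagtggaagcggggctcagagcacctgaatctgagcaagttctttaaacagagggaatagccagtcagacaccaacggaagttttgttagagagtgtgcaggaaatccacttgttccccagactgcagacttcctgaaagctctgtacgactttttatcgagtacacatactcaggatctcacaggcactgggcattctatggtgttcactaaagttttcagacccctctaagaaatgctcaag
Krtap5-4: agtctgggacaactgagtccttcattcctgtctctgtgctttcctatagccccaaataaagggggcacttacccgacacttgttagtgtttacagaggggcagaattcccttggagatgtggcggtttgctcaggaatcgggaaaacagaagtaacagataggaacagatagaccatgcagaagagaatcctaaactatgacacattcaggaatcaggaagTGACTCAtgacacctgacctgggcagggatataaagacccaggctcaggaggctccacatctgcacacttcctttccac
Sh3bp2: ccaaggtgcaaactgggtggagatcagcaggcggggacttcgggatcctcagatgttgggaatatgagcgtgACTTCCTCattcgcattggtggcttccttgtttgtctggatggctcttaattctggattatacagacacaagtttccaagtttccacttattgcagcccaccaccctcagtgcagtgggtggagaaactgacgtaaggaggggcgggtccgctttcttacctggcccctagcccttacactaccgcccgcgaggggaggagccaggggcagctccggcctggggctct
Mad1l1: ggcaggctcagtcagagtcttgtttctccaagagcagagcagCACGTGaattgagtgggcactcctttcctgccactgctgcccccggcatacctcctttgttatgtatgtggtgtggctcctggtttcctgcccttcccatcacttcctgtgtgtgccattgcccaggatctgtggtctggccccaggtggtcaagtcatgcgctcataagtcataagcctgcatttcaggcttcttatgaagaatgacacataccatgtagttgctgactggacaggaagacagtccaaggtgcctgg

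The first 3 of these share TGANTCA, the AP-1 motif, in the form TGACTCA. It was found in 3 of the 10 promoters (30%), against 7.81% of 32851 promoters of the genome in windows of the same length. GAGGAAGT, the PU.1 motif, was in the Sh3bp2 promoter as its reverse complement (10% against 3.20% of all promoters), and the E-box CACGTG in the Mad1l1 promoter (10% against 7.15%). GGGCGGGG, the motif of KLF and SP factors, was in the Epha1 and Rassf1 promoters (20% against 17.6%). The other 15 motifs searched were in none of the 10: ETS CCGGAAGT, CRE TGACGTCA, C/EBP TTGCNNAA, CTCF CNAGGGGGC, M-box TCACATGA, RUNX TGTGGTTT, IRF GAAANTGAA, NF-kB GGANTTTCC, EGR GCGTGGGCG, MEF2 TAAAAATAG, MAF TGCTGANTC, NR4A AAAGGTCA, STAT TTCCNGGAA, NRF1 GCGCATGCG and YY1 AAGATGGCG. Both strands were searched, and the MAF motif shares TGANTC with the AP-1 motif. With 10 promoters a share moves by 10 points per promoter, and a match is a string of letters, not a bound site. G and C made up a median of 54.2% of the bases in the 10 promoters, against 52.7% over all promoters.

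LPS closed 3125 sites by the same standard (a peak in 3 of 3 control and 0 of 3 LPS samples), 2.44% of all sites. Of these, 1862 (59.6%) had no peak in any LPS+LA sample, 578 (18.5%) had a peak in 1, 402 (12.9%) in 2 and 283 (9.06%) in 3. Return in every LPS+LA sample was thus the outcome for the smallest share of the sites that LPS closed. For scale, 59224 sites had a peak in all 9 control, LPS and LPS+LA samples, 5798 were absent from control and present in all LPS and LPS+LA samples, and 2083 were present in LPS alone among these groups.

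The edge of the rule is crowded. Another 654 sites had a peak in 1 LPS sample and in all control and LPS+LA samples, 402 lacked a peak in 1 LPS+LA sample only, and 136 in 1 control sample only. At the 654 sites just outside, the single LPS peak was in replicate 1 at 423 sites, in replicate 2 at 145 and in replicate 3 at 86, and its score had a median percentile within its list of 12.5, 11.1 and 11.4. The number of returned sites was 706 without LPS replicate 1, which has the longest list, 428 without LPS replicate 2 and 591 without LPS+LA replicate 1, which has the shortest list of its group. It was between 308 and 369 without any other 1 of the 9 samples. With each list held to its 76680 highest scores it was 479. A missing peak means a signal below the caller's threshold, not closed chromatin in every cell. Fewer cells with an open site and a less open site in all cells cannot be told apart.

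The returned sites were weak where they were called. The score, the authors' own value per peak, is given here as a percentile within its sample's list. In LPS+LA samples the median percentile at the 283 sites was 17.0, 22.3 and 23.6, and in control samples it was 27.9, 24.4 and 30.6. At the 56120 sites with a peak in all 12 samples the medians ran from 62.8 to 70.8. The sites that stayed closed with lactic acid were somewhat weaker still in control samples, at 21.5, 18.0 and 22.7. These percentiles are from the samples that chose the sites and carry no test.

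**Figure D1:**
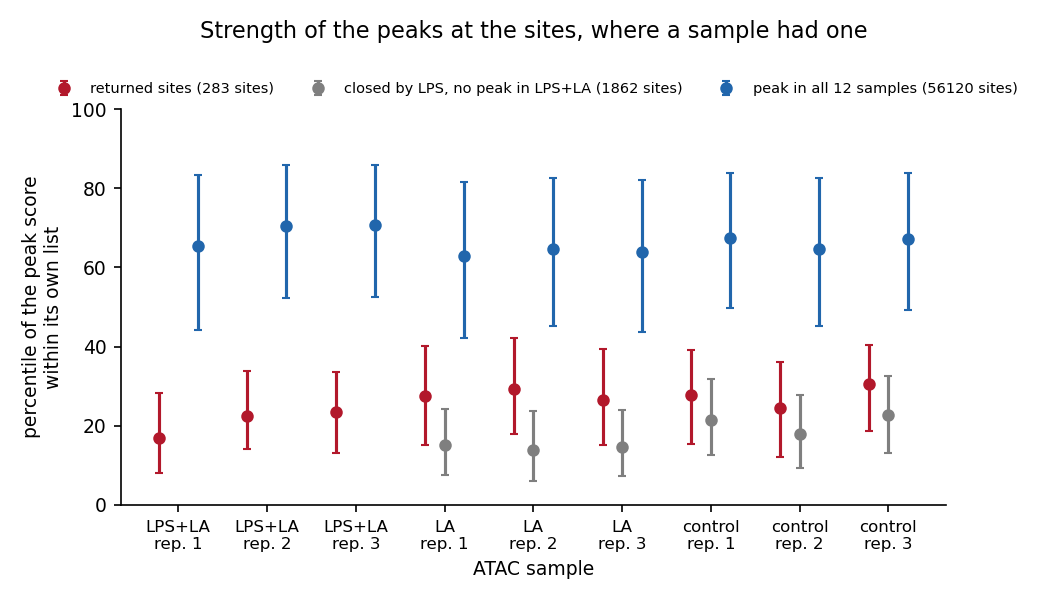
Median percentile of the peak score (0 to 100, within each sample's own list, y axis) in each LPS+LA, LA and control sample (x axis), for the 283 returned sites, the 1862 sites closed by LPS with no peak in LPS+LA, and the 56120 sites with a peak in all 12 samples; bars span the quartiles, and LA values cover only the sites with a peak in that sample. The returned sites lie at 17.0 to 30.6 in every sample, far under the sites open throughout at 62.8 to 70.6.

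The 6 strongest of the returned sites, by their mean percentile over control and LPS+LA samples, had a peak in all 3 LA samples. One was at chr1:73951183-73951690, inside Tns1, which encodes the focal adhesion protein tensin. Its scores were 15.4, 16.6 and 24.4 in LPS+LA, 72.1, 92.8 and 46.7 in LA, and 125, 81.2 and 106 in control samples. At chr12:105008821-105009208, inside Syne3, a gene of a nuclear envelope protein that binds the cytoskeleton, the scores were 39.4, 49.3 and 54.1 in LPS+LA, 30.9, 14.99 and 21.1 in LA, and 35.4, 35.8 and 26.1 in control samples. The other 4 were at chr19:38030715-38031162 inside Myof, chr17:35048346-35048633 beside Msh5, chr5:123723126-123723492 beside Zcchc8, and chr12:70698229-70698817, with no gene of the RNA table within 50 kb. The Tns1 site had its lowest scores in LPS+LA and the Syne3 site its highest there, though scores of different lists are on no common scale.

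Most of the returned sites were also called in cells given lactic acid without LPS, samples that the rule did not use. A peak was present at 231, 241 and 238 of the 283 sites in LA replicates 1, 2 and 3 (81.6%, 85.2% and 84.1%), against 23.4%, 34.7% and 30.3% of the 1862 sites that stayed closed in LPS+LA. The 654 sites that differ from the returned ones by a peak in 1 LPS sample had LA peaks at 78.9%, 86.4% and 82.1%, beside 81.6%, 85.2% and 84.1% of the returned sites. The difference between returned and unreturned sites was 54.1 ± 3.91 percentage points (SD over the 3 LA samples) and pointed the same way in 3 of 3. The exact sign-flip permutation p was 0.25 (two-sided), the smallest that 3 samples can give, so it cannot decide. Both sets were split by their LPS+LA peaks, and LPS+LA and LA samples share lactic acid and a lane. The split favours this direction, so the difference is a description. All 3 LA samples had a peak at 196 of the 283 sites (69.3%, Wilson 95% interval 63.7 to 74.3%, counting error only), against 223 of the 1862 (11.98%) and 51.7% of all sites. Of the rest, 51 had a peak in 2 LA samples, 20 in 1 and 16 in none. The interval treats the sites as independent and holds no spread between LA samples or between choices of peaks.

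Sites with stronger control peaks were more often called in LA samples in both sets, and in each bin the returned sites had the larger share. The bins were added after seeing the data and match control scores only. The part of strength in the difference was not tested. Among sites whose mean control percentile was up to 10, 36.0% of 25 returned sites and 1.17% of 256 unreturned sites had a peak in all 3 LA samples. Between 10 and 20 the shares were 55.7% and 4.26%, between 20 and 30 they were 63.4% and 9.16%, and between 30 and 40 they were 82.5% and 23.0%. Above 40, 94.4% of 54 returned and 49.7% of 179 unreturned sites were called in all 3. LPS+LA and LA samples shared a lane, and its part in these shares was not tested. With each list held to its 76680 highest scores, 89.6% of the 479 sites then chosen had a peak in all 3 LA samples.

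**Figure D2:**
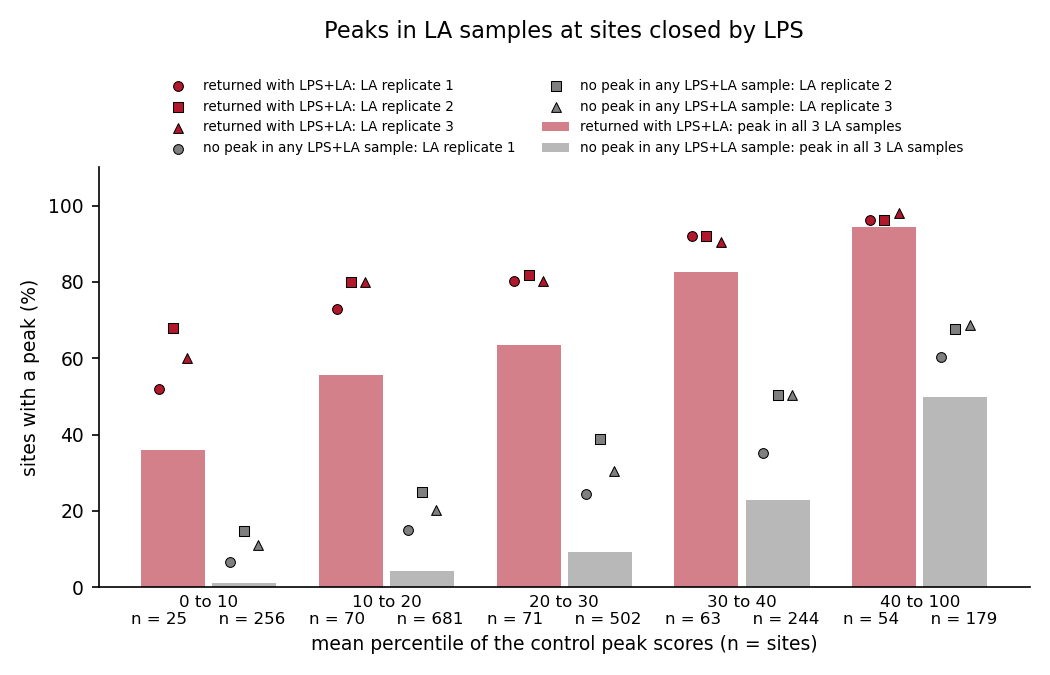
Share of sites (%, y axis) with a peak in all 3 LA samples (bars) and in each LA replicate (points), for returned sites and for sites closed by LPS with no peak in LPS+LA, by the mean percentile of their control scores (x axis; n is the number of sites). In each of the 5 bins every LA replicate is higher at the returned sites, from 36.0% against 1.17% in all 3 at the weakest sites to 94.4% against 49.7% at the strongest.

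Where an LA sample had a peak at a returned site, its median percentile was 27.6, 29.4 and 26.6. At the 196 sites with a peak in all 3 LA samples, the medians over the same sites were 20.5, 25.4 and 27.6 in LPS+LA, 31.7, 33.3 and 29.9 in LA, and 31.5, 27.7 and 34.9 in control samples. The lists differ in length, from 76680 peaks in LA replicate 1 to 99435 in LPS+LA replicate 2 among these 9 samples, and the part of length in these medians was not tested. At unreturned sites the LA peaks had medians of 15.1, 13.9 and 14.6. The returned sites with no LA peak were weaker (median of the mean percentile over LPS+LA and control 13.3) than those called in all 3 LA samples (27.9). The 16 sites without any LA peak included one inside Spi1, the gene of PU.1 (chr2:91112522-91112884), with scores of 4.51, 6.41 and 10.0 in LPS+LA and 8.14, 3.25 and 11.2 in control samples. Another lay 19238 bp from Kitl, which encodes stem cell factor, and another 47641 bp from Kit, its receptor.

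The returned sites were narrow and mostly far from promoters. Their median width was 376 bp (223 to 923), against 326 bp for unreturned sites, 608 bp for sites with a peak in all 12 samples and 428 bp over all sites. A width follows the number of merged peaks, so it is not independent of the pattern. Promoters were overlapped by 3.31% of them, against 2.06% of unreturned sites, 18.2% of sites open in all 12 samples and 9.24% of all sites. The median distance to the nearest gene start was 18294 bp, against 18454 bp for unreturned sites and 17504 bp for all sites, and 55.5% lay inside a protein-coding gene, against 58.8% and 58.3%. The sites with a peak in all 12 samples lay closer, at a median of 13654 bp.

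Most of the sites had no LPS peak close by. An LPS peak of any sample lay within 500 bp of 35 of the 283 (12.4%) and within 1 kb of 72 (25.4%), with a median gap of 2116 bp. At the unreturned sites the shares were 15.8% and 29.2%, with a median gap of 2005 bp. The sites were spread over the genome: chromosome 5 held 27 (9.54%, against 6.03% of all sites) and chromosome 2 held 26 (9.19% against 8.13%). Only 7 neighbouring pairs lay within 50 kb of each other.

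To set the sites beside RNA, each was given the nearest gene of the RNA table within 50 kb of the gene's bounds. A gene was found for 244 sites, 152 of them inside the gene, and these were 236 genes, of which 207 had enough counts to be tested and 29 did not. Cd9 was nearest to 3 sites, and 7 genes (Vmp1, Atp2a2, Ldlrad4, Ttc28, Mad1l1, Rbm47 and Ifitm10) to 2 each. A gene was called at an adjusted p under 0.05 by edgeR (quasi-likelihood test, Benjamini-Hochberg adjustment over 12213 genes). In bulk RNA, fewer cells expressing a gene and less RNA per cell cannot be told apart. Relative to all tested genes, these nearest genes did not, as a group, lose RNA with LPS and regain it with lactic acid. With every gene within 50 kb instead, 31.5% of 432 tested genes were higher and 34.3% lower with LPS (all tested genes 32.4% and 32.4%). With LPS+LA against LPS, 34.3% were higher and 29.4% lower (all tested genes 29.2% and 29.7%).

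With LPS against control, 65 of the 207 genes were lower (31.4%), where 32.4% of all tested genes were called lower, and 78 were higher (37.7%), where 32.4% were called higher. Their median log2 fold change was 0.10, against -0.05 over all tested genes. With LPS+LA against LPS, 61 were higher (29.5%, background 29.2%) and 74 lower (35.7%, background 29.7%), with a median of 0.00 against 0.03. The share of genes that moved with the sites was thus near the background in both steps. The 1227 tested genes nearest to unreturned sites gave similar shares, 34.2% lower with LPS and 32.5% higher with LPS+LA against LPS.

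The LPS+HCl libraries, which have no ATAC counterpart, put acid without lactate beside lactic acid. With LPS+HCl against LPS, 51 of the 207 genes were higher (24.6%, background 18.0%) and 42 lower (20.3%, background 20.8%). With LPS+LA against LPS+HCl, 37 were higher (17.9%, background 18.4%) and 66 lower (31.9%, background 22.5%). At genes nearest to unreturned sites the shares were 25.1% higher and 24.8% lower for LPS+HCl against LPS, and 21.6% higher and 29.9% lower for LPS+LA against LPS+HCl. The shares above the background thus stood at both sets of genes. With LA against control, 50 were higher (24.2%, background 20.4%) and 35 lower (16.9%, background 17.9%).

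These splits depend on the scaling of the libraries. TMM, the scaling used, sets the median gene near 0, and its factors ran from 0.759 to 1.27. Scaled by total counts alone, the median of all genes was -0.77 for LPS against control, 0.43 for LPS+LA against LPS, 0.25 for LPS+HCl against LPS, 0.16 for LPS+LA against LPS+HCl and -0.10 for LA against control. Under that scaling 18.4% of the 207 genes were higher and 62.3% lower for LPS against control (all genes 14.4% and 67.9%), and 49.8% higher and 20.3% lower for LPS+LA against LPS (all genes 50.8% and 16.6%). For LPS+HCl against LPS the shares were 45.9% and 11.1% (all genes 37.1% and 10.7%), for LPS+LA against LPS+HCl 29.0% and 21.3% (32.3% and 15.5%), and for LA against control 17.9% and 27.5% (14.1% and 25.1%). The shift was shared by all genes, with medians at the 207 genes of -0.62 for LPS against control and 0.40 for LPS+LA against LPS.

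**Figure D3:**
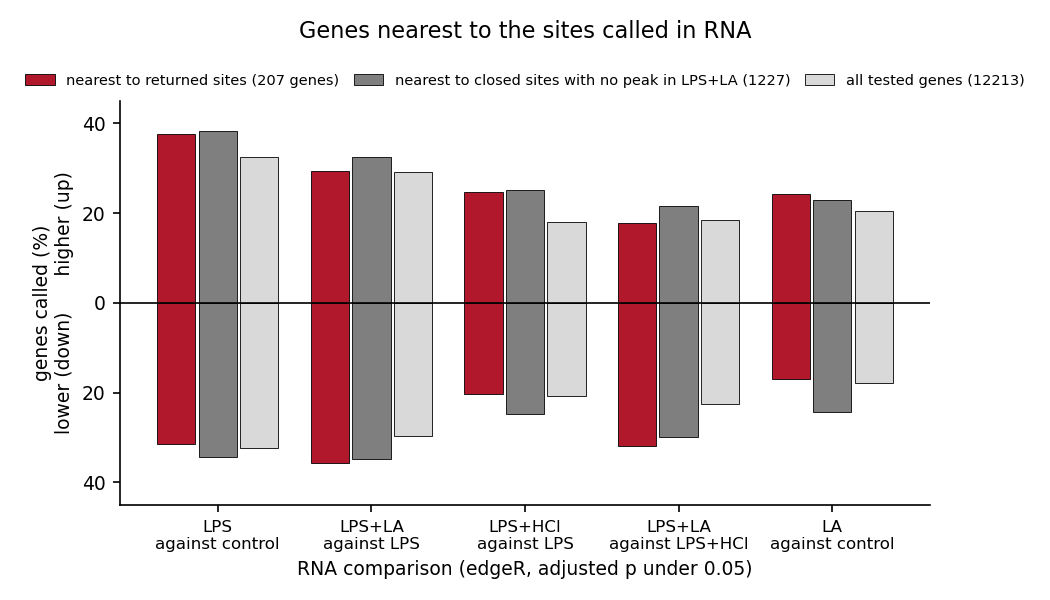
Share of genes called higher (up) and lower (down, %, y axis) in each RNA comparison (x axis) among the 207 tested genes nearest to returned sites, the 1227 nearest to unreturned sites and all 12213 tested genes. For LPS against control the genes beside returned sites have 37.7% higher and 31.4% lower, against 32.4% and 32.4% of all genes.

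A subset of the genes did move with the sites, lower in LPS than in control and higher in LPS+LA than in LPS. By the naming conditions (called in both, no overlap between libraries, at least 10 CPM in a group) they were 39 of the 207 (18.8%), where 17.0% of all tested genes met the same conditions. The opposite course was met by 55 (26.6%), where 21.5% of all genes met it. Both steps use the LPS libraries, so a high or low LPS value favours these courses in any list. The 12 with the largest log2 fold change in LPS+LA against LPS were Rtn4rl1, Zfp36l1, Bcl2, Klhl6, Gab3, Pmaip1, Gmnn, Pla2g15, Prkch, Lonrf3, Rasa3 and Tspoap1.

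Zfp36l1 encodes an RNA-binding protein that speeds decay of mRNAs with AU-rich elements, cytokine mRNAs among them. Its returned site, chr12:80115401-80115931, lay 2388 bp from the gene and had a peak in all 3 LA samples. Zfp36l1 RNA was at 407 and 423 CPM in LPS+LA, 106 and 101 in LPS+HCl, 45.4 and 47.0 in LPS, 437 and 354 in LA, and 214 and 224 CPM in control libraries. Both LPS libraries were under every other library, and LPS+LA libraries were above control ones. The log2 fold change was 3.17 ± 0.09 (SE, n = 2 libraries per group) for LPS+LA against LPS, with an edgeR adjusted p of 3.19e-18, and -2.25 ± 0.09 for LPS against control.

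Bcl2 and Pmaip1 act on opposite sides of apoptosis, Bcl2 as its inhibitor at mitochondria and Pmaip1 (Noxa) as an activator that binds Bcl2 relatives. The site nearest to Bcl2, chr1:106519561-106519868, was 18308 bp outside the gene and had a peak in 2 LA samples. Bcl2 had 48.6 and 45.8 CPM in LPS+LA, 27.04 and 29.1 in LPS+HCl, 6.87 and 6.74 in LPS, 24.3 and 30.1 in LA, and 27.3 and 24.0 CPM in control libraries. Its LPS libraries stood apart below all others. Pmaip1 had 22.4 and 15.3 CPM in LPS+LA, 5.01 and 4.69 in LPS+HCl, 3.89 and 3.77 in LPS, 20.9 and 22.3 in LA, and 8.08 and 7.34 CPM in control libraries. The LPS+LA against LPS log2 fold change was 2.79 ± 0.14 for Bcl2 (edgeR adjusted p 3.19e-14) and 2.30 ± 0.20 for Pmaip1 (edgeR adjusted p 6.52e-10).

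Rasa3 and Gab3 belong to growth factor signalling: Rasa3 switches off Ras and Rap proteins, and Gab3 is an adaptor under the M-CSF receptor. Their sites, chr8:13671673-13671961 and chrX:74998313-74998656, lay inside the genes. The Rasa3 site had a peak in 2 LA samples and the Gab3 site in 1. In LPS+LA samples the Gab3 site was near the bottom of the lists, at percentiles of 0.574, 1.45 and 8.01. In control samples it was at 28.5, 23.1 and 31.1. Rasa3 had 107 and 105 CPM in LPS+LA, 50.1 and 46.0 in LPS+HCl, 28.4 and 27.03 in LPS, 131 and 139 in LA, and 190 and 192 CPM in control libraries. The level with LPS+LA was thus above LPS and below control, and the LPS+LA against LPS log2 fold change was 1.93 ± 0.09 (edgeR adjusted p 3.28e-15). Gab3 had 8.03 and 6.01 CPM in LPS+LA, 1.78 and 2.15 in LPS+HCl, 1.17 and 0.991 in LPS, 7.86 and 6.43 in LA, and 14.8 and 15.96 CPM in control libraries. Its log2 fold change was 2.69 ± 0.28 for LPS+LA against LPS (edgeR adjusted p 1.31e-08) and -3.82 ± 0.26 for LPS against control.

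Pla2g15 encodes a lysosomal phospholipase. Its site, chr8:106148995-106149363, ended 991 bp from the gene, with scores of 6.95, 9.11 and 10.7 in LPS+LA, 9.42, 16.05 and 12.3 in LA, and 58.9, 48.2 and 76.8 in control samples. Here the LPS+LA and LA scores all lay under the control scores. Pla2g15 RNA was at 74.1 and 61.3 CPM in LPS+LA, 39.3 and 39.9 in LPS+HCl, 14.6 and 18.3 in LPS, 97.5 and 82.7 in LA, and 78.0 and 78.8 CPM in control libraries, with an LPS+LA against LPS log2 fold change of 2.04 ± 0.12 (edgeR adjusted p 1.02e-12). For the other 6 genes the same log2 fold change ran from 1.80 for Tspoap1, a binding partner of the mitochondrial protein TSPO, through 2.01 for the kinase gene Prkch and 2.26 for the replication inhibitor Gmnn, to 3.83 for Rtn4rl1, a Nogo receptor relative. Rtn4rl1 had 3.32 and 6.16 CPM in LPS+LA, 1.67 and 1.66 in LPS+HCl, 0.389 and 0.264 in LPS, 19.2 and 19.0 in LA, and 11.7 and 12.2 CPM in control libraries.

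These 12 genes were chosen for low values in LPS, which favours a higher value in LPS+HCl, so the LPS+HCl values are a description. By their means the LPS+HCl libraries lay between LPS and LPS+LA for 11 of the 12. LPS+HCl against LPS was called higher for 11 of the 12 (18.0% of all tested genes were), from log2 0.54 for Lonrf3 to 2.32 for Rtn4rl1, and was 0.34 with an edgeR adjusted p of 0.249 for Pmaip1. The call for Gab3 (log2 0.86, edgeR adjusted p 0.0404) was lost by DESeq2's test and without any 1 of 6 libraries. Tspoap1 was the exception to the order, at 8.24 and 9.53 CPM in LPS+LA and 8.29 and 10.5 CPM in LPS+HCl libraries.

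The 5 genes with the largest falls in the opposite course were Exoc3l4, Tmtc2, Snx10, Mov10 and Zeb2. Each had a returned site with a peak in all 3 LA samples, so a site that LPS closed lay beside a gene whose RNA LPS raised. Zeb2 encodes a zinc finger transcription factor of myeloid identity, and its site, chr2:45100598-45101107, lay inside the gene. Zeb2 had 309 and 324 CPM in LPS+LA, 546 and 558 in LPS+HCl, 954 and 940 in LPS, 116 and 116 in LA, and 293 and 291 CPM in control libraries. LPS against control gave a log2 fold change of 1.70 ± 0.06 and LPS+LA against LPS -1.58 ± 0.06 (edgeR adjusted p 6.48e-16), and LA against control -1.33. Mov10, an RNA helicase induced by interferon, had 93.1 and 99.1 CPM in LPS+LA, 201 and 190 in LPS+HCl, 288 and 306 in LPS, 57.8 and 64.8 in LA, and 41.3 and 46.6 CPM in control libraries. Its log2 fold change for LPS+LA against LPS was -1.63 ± 0.08 (edgeR adjusted p 3.06e-14). Snx10, a sorting nexin of endosomes, gave -1.77, Tmtc2 -1.89 and Exoc3l4, a gene related to the exocyst, -2.30.

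**Figure D4:**
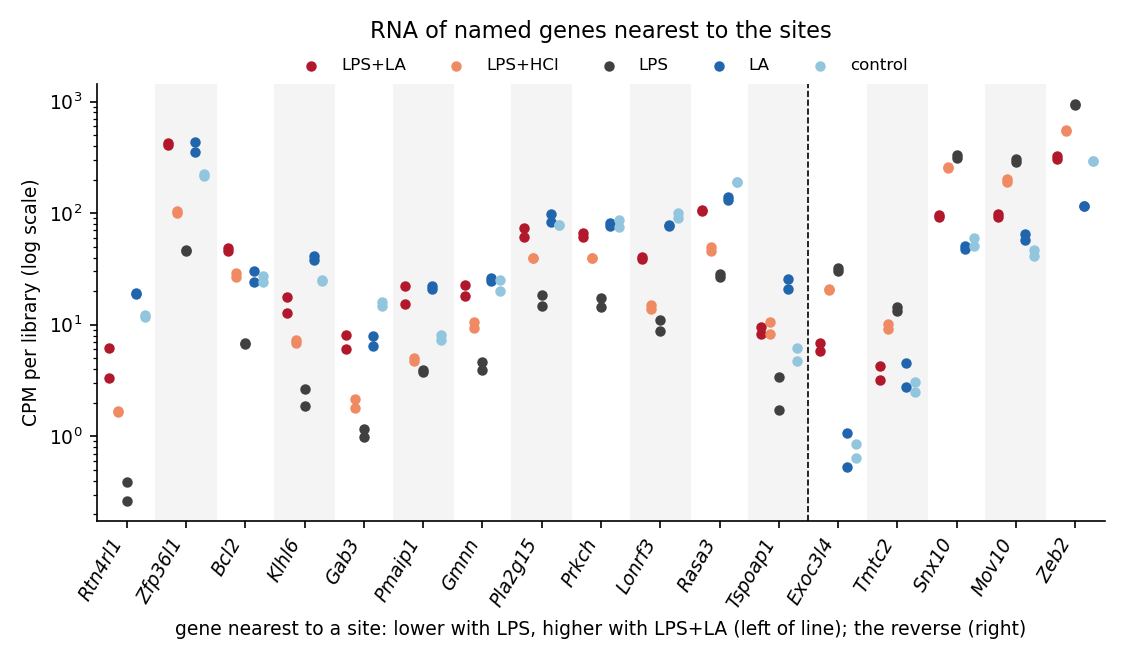
CPM in each of the 2 libraries of LPS+LA, LPS+HCl, LPS, LA and control cells (log scale, y axis) for 17 genes nearest to returned sites (x axis): the 12 lower in LPS and higher in LPS+LA left of the dashed line, the 5 with the reverse course right of it. Left of the line the LPS points are the lowest of each gene, as for Zfp36l1 at 45.4 and 47.0 CPM; right of it they are the highest, as for Zeb2 at 954 and 940 CPM.

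Spi1 followed the reverse course too. It had 662 and 647 CPM in LPS+LA, 773 and 764 in LPS+HCl, 1326 and 1262 in LPS, 485 and 538 in LA, and 384 and 457 CPM in control libraries. The log2 fold change was 1.62 ± 0.08 for LPS against control and -0.98 ± 0.08 for LPS+LA against LPS (edgeR adjusted p 8.69e-11). RNA counts are per gene, so different starts of Sh3bp2 or of Mad1l1 cannot be told apart. Sh3bp2, whose printed promoter with the PU.1 motif lies inside the gene, had 148 and 151 CPM in LPS+LA and 213 and 211 in LPS+HCl libraries. It had 300 and 300 CPM in LPS, 203 and 206 in LA, and 189 and 203 in control libraries. Its log2 fold change for LPS+LA against LPS was -1.003 ± 0.07 (edgeR adjusted p 8.4e-12), and for LPS against control it was 0.62 by TMM and -0.10 by total counts. Mad1l1, with the E-box promoter, had 47.4 and 46.9 CPM in LPS+LA and 39.9 and 40.2 CPM in LPS libraries, a log2 fold change of 0.23 whose edgeR adjusted p of 0.049 was over 0.05 in 12 of the 15 other fits run. Jun, 42290 bp from the Junos site, had 226 and 250 CPM in LPS+LA, 129 and 131 in LPS, 219 and 290 in LA, and 181 and 205 CPM in control libraries.

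The 8 genes with several returned sites did not share 1 course. Cd9, a tetraspanin of the cell surface with 3 sites (the nearest 6517 bp away), had 404 and 377 CPM in LPS+LA, 383 and 362 in LPS, 389 and 370 in LA, and 283 and 276 CPM in control libraries. The log2 fold change was 0.07 for LPS+LA against LPS (edgeR adjusted p 0.418), and 0.41 for LPS against control by TMM but -0.31 by total counts. Atp2a2, the calcium pump of the endoplasmic reticulum, gave -0.59 for LPS+LA against LPS and -0.42 for LPS+HCl against LPS. For LPS against control Atp2a2 gave 0.37 by TMM and -0.35 by total counts. Rbm47, an RNA-binding protein, gave 0.29 for LPS+LA against LPS (edgeR adjusted p 0.00277) and 0.35 for LPS+HCl against LPS (edgeR adjusted p 0.000888). Vmp1, a membrane protein of autophagy with sites at chr11:86598556-86598884 and chr11:86610280-86610574, gave -0.28 by TMM and 0.12 by total counts. Ldlrad4, an inhibitor of TGF-beta signalling, had 19.1 and 20.3 CPM in LPS+LA, 68.5 and 68.0 in LPS+HCl, 31.3 and 30.5 in LPS, 18.6 and 15.5 in LA, and 16.9 and 16.2 CPM in control libraries. Its LPS+HCl libraries were the highest, and LPS+HCl against LPS gave 1.14 (edgeR adjusted p 7.02e-09). Mad1l1 has its values beside the other genes with a promoter site. Ttc28 and Ifitm10, also with 2 sites each, were added after their values were seen. Ttc28 had 17.1 and 13.7 CPM in LPS+LA, 15.97 and 14.1 in LPS+HCl, 8.23 and 7.73 in LPS, 14.4 and 16.7 in LA, and 17.7 and 18.72 CPM in control libraries, and gave -1.19 for LPS against control (edgeR adjusted p 6.08e-07) and 0.95 for LPS+LA against LPS (edgeR adjusted p 2.58e-05). Ifitm10, at most 5.19 CPM in any library, gave 2.51 (edgeR adjusted p 0.000161) and 0.24 (edgeR adjusted p 0.655).

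Of the 182 genes in the lists of macrophage genes, 8 were nearest to a returned site (4.396%), where 1.47% of the genes of the RNA table were. The lists were chosen with earlier results known, so nothing is read from that difference. The 8 were in 4 lists. Of 26 genes of macrophage identity only Mertk, the receptor that clears apoptotic cells, was one: it had 38.1 and 43.7 CPM in LPS+LA, 32.9 and 38.6 in LPS, 66.3 and 62.05 in LA, and 69.2 and 72.9 CPM in control libraries. Its site at chr2:128746483-128747052 was called in all LPS+LA and LA samples, while the LPS+LA against LPS log2 fold change was 0.19 (edgeR adjusted p 0.109). Mertk had 47.0 and 45.3 CPM in LPS+HCl libraries, and LPS+HCl against LPS gave 0.37 (edgeR adjusted p 0.00562). Over the 25 tested genes of that list 13 were higher (52.0%) and 7 lower (28.0%) with LPS against control, where 32.4% and 32.4% of all tested genes were. With LPS+LA against LPS 10 were higher (40%) and 9 lower (36%), where 29.2% and 29.7% of all tested genes were. Of 41 myeloid receptors, Ccr2, the receptor of the chemokine CCL2, and Lilra5, too low to be tested, were nearest to a site. Ccr2 had 12.5 and 21.0 CPM in LPS+LA, 11.0 and 13.7 in LPS, and 35.9 and 32.3 CPM in control libraries, with a log2 fold change of -1.47 ± 0.19 for LPS against control and 0.44 for LPS+LA against LPS (edgeR adjusted p 0.0702). Over the 40 tested receptors 17 were higher and 17 lower with LPS (42.5% each, against 32.4% and 32.4% of all genes), and 16 higher and 17 lower with LPS+LA against LPS (40% and 42.5%, against 29.2% and 29.7%).

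Among 35 kinases, phosphatases and adaptors that damp signalling, Rasa3, Sh2b3 and Prkcb were nearest to a site. Sh2b3 (LNK), an adaptor that restrains cytokine receptors, had a site inside the gene at chr5:121833612-121834168. It had 102 and 116 CPM in LPS+LA, 69.1 and 67.3 in LPS+HCl, 61.2 and 60.5 in LPS, 195 and 198 in LA, and 205 and 230 CPM in control libraries. The LPS+LA libraries lay above LPS and below control libraries, with a log2 fold change of 0.85 ± 0.08 for LPS+LA against LPS (edgeR adjusted p 6.14e-09) and -1.84 ± 0.08 for LPS against control. Prkcb, a protein kinase C, had 97.0 and 102 CPM in LPS+LA, 118 and 118 in LPS+HCl, 115 and 120 in LPS, 106 and 96.2 in LA, and 123 and 119 CPM in control libraries. It gave, for LPS against control, -0.05 by TMM (edgeR adjusted p 0.613) and -0.77 by total counts, where it was called lower, and for LPS+LA against LPS -0.24 by TMM (edgeR adjusted p 0.00985) and 0.16 by total counts. Over that list 13 genes were higher and 19 lower with LPS (37.1% and 54.3%, against 32.4% and 32.4% of all genes), and 17 higher and 12 lower with LPS+LA against LPS (48.6% and 34.3%, against 29.2% and 29.7%). Spi1 and Zeb2 were the only ones of 45 haematopoietic transcription regulators. Of the 44 of that list that were tested, 13 were higher and 25 lower with LPS (29.5% and 56.8%, median -0.54), and 24 higher and 11 lower with LPS+LA against LPS (54.5% and 25%, median 0.96). The shares of all genes are those given for the other lists, and the medians over all tested genes were -0.05 and 0.03.

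Beside the strongest sites lay genes with higher and with lower RNA in LPS+LA against LPS. Tns1 had 46.2 and 48.0 CPM in LPS+LA, 20.9 and 23.1 in LPS, 38.0 and 39.8 in LA, and 49.6 and 61.0 CPM in control libraries, a log2 fold change of 1.10 ± 0.12 for LPS+LA against LPS (edgeR adjusted p 2.97e-08). Zcchc8, a part of the complex that guides RNA to the nuclear exosome, gave 0.57 ± 0.13 and Syne3 0.72 ± 0.08 in the same contrast. Myof, a protein of membrane repair, gave -0.70 ± 0.07, with 249 and 250 CPM in LPS+LA and 397 and 415 CPM in LPS libraries. Msh5, a meiosis gene, was at most 3.39 CPM in any library and was not called.

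The RNA of a panel of 88 transcription factors moved in both directions. The panel holds factors of the motifs searched and also receptors whose motifs were not searched, such as Vdr and Nr3c1. Of the 88, 43 were higher and 37 lower with LPS against control (48.9% and 42.0%, where 32.4% and 32.4% of all tested genes were). With LPS+LA against LPS, 35 were higher and 38 lower (39.8% and 43.2%, where 29.2% and 29.7% of all tested genes were). By total counts these splits were 35 and 45, and 44 and 30, where all 12213 genes split into 1761 and 8289, and 6208 and 2032. The AP-1 family, which binds the letters shared by 3 of the promoters, split by member. Fos had 235 and 195 CPM in LPS+LA, 193 and 184 in LPS+HCl, 22.7 and 25.4 in LPS, 229 and 222 in LA, and 42.3 and 43.4 CPM in control libraries. The LPS+LA, LPS+HCl and LA libraries were all above LPS and control, with a log2 fold change of 3.16 ± 0.10 for LPS+LA against LPS (edgeR adjusted p 5.07e-18), and Fosl2 gave 2.44 ± 0.11. Batf gave -1.88 ± 0.14 and Atf3 -1.38 ± 0.11 in the same contrast, while Junb gave -0.23 by TMM and 0.17 by total counts. Among KLF factors, Klf2 had 62.7 and 63.7 CPM in LPS+LA and 5.77 and 4.69 CPM in LPS libraries (3.59 ± 0.14), and Klf6 had 282 and 287 CPM in LPS+LA and 1185 and 1243 CPM in LPS libraries (-2.09 ± 0.07).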

How the data were processed

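Per the file headers, the authors called ATAC peaks in each sample with MACS2. In their processing notes the submitters name MACS2 2.0.10, BWA 0.5.9, Picard and mm10 (GRCm38) for ATAC-seq, and HISAT, Bowtie2 and GRCm38.p6 for RNA-seq. The deposited score of each peak is the authors' value and was used to rank peaks within a list. The lists hold no read counts, so depth per site is unknown, and any shift of reads for the enzyme is not stated there. For RNA the authors deposited expected counts for 16059 genes, of which 6.07% of values were not whole; they were rounded to whole numbers. No source used here states strand in counting, so overlapping antisense genes cannot be told apart.

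Peaks were merged into sites in Python 3.11.15 (pandas 2.3.3) at 1 bp of overlap. Gene bounds came from RefSeq GRCm38.p6 (15959 of 16059 gene IDs matched), and promoters from a table with no starts on chromosome 18. No genome was used, so sequences of sites outside promoters are not analysed here. RNA was fitted in 1 model over 10 libraries with edgeR 4.0.16 (filterByExpr with a minimum count of 10, TMM, glmQLFit robust, two-sided). CPM values use the TMM library sizes. SE is the log2 fold change divided by the root of its F statistic. DESeq2 1.42.0 was an alternative. The merging and the edgeR step were tested on simulated data. Deviations of same-numbered libraries correlated at -0.05 to 0.05, except at -0.50 between control and LPS+HCl. Replicate numbers were thus not taken as pairs. By that sign control replicate 1 deviated with LPS+HCl replicate 2, the 2 libraries with the highest neuron marker sums, and the cause was not tested.

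Sites, gene lists, motifs and alternatives were chosen with earlier results of these data known. Genes were named by a rule: up to 12 nearest genes called lower in LPS and higher in LPS+LA against LPS, without overlap and with 10 CPM in a group, by the largest change; up to 5 of the opposite course; up to 6 nearest to the most sites, ties going to the higher mean CPM; and tested members of 4 lists. A further list is not reported here. The genes nearest to the strongest sites and to promoter sites were named besides. Kit, Kitl and the members named from the panel of 88 factors (Fos, Fosl2, Batf, Atf3, Junb, Klf2 and Klf6) were chosen after their values were seen. Columns of samples outside the series numbered 0. The bins of control strength and the assignment by gene start were added after seeing the data, as were distances to LPS peaks.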

Additional observations from a re-analysis of the deposited data

Results flagged for a closer look

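The effect of lactic acid with LPS (LPS+LA against LPS) differed from its effect without LPS (LA against control) at 25 of the 28 named genes, by the interaction term of the edgeR fit (adjusted p under 0.05), where 5409 of all 12213 tested genes passed (44.3%). Of the 28, 17 were named for a large change in LPS+LA against LPS, the first term of that difference, so the choice favours a pass and the count is a description. Values here are the first log2 fold change minus the second. The dose of lactic acid alone is not stated in the labels, so the doses may differ. Of the 12 genes lower in LPS and higher in LPS+LA, the difference was 3.797 for Gab3, 3.16 for Rtn4rl1, 2.71 for Bcl2, 2.43 for Rasa3, 2.32 for Zfp36l1, 2.30 for Lonrf3, 2.08 for Gmnn, 2.07 for Klhl6, 2.06 for Prkch, 1.84 for Pla2g15 and 0.81 for Pmaip1, and Tspoap1 did not pass. Of the 5 with the reverse course it was -2.40 for Exoc3l4, -2.28 for Tmtc2, -2.11 for Mov10, -1.61 for Snx10 and -0.26 for Zeb2. Among genes with several returned sites it was -0.73 for Vmp1, -0.69 for Ldlrad4, -0.38 for Atp2a2, -0.37 for Cd9 and 0.34 for Rbm47, and among list members 1.13 for Ccr2, 0.99 for Sh2b3, 0.34 for Mertk and -1.27 for Spi1. Mad1l1 and Prkcb did not pass. At 6 genes (Gab3, Lonrf3, Rasa3, Mov10, Vmp1 and Spi1) both effects were called and had opposite signs. By total counts this held for 4 of them: Vmp1 turned to 0.12 for LPS+LA against LPS, and Spi1 lost its call for LA against control (0.18, edgeR adjusted p 0.0565). The share of all tested genes with 2 called effects of opposite sign was not counted, so nothing is read from the 6 genes.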

How the results depend on the processing

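The number of returned sites was 479 with every list held to the same number of peaks, and 308 to 706 with 1 sample left out. The share with a peak in all 3 LA samples was 89.6% with equal lists, 78.7% with the lowest 25% of scores left out, and 57.4 to 76.3% with 1 sample left out. With every gene within 50 kb in place of the nearest, 136 genes were higher and 148 lower for LPS against control, 148 and 127 for LPS+LA against LPS, 106 and 81 for LPS+HCl against LPS, 89 and 104 for LPS+LA against LPS+HCl, and 109 and 73 for LA against control. These are of 432 tested genes, 31.5% and 34.3% in the first contrast and 34.3% and 29.4% in the second. Of all tested genes 32.4% and 32.4%, and 29.2% and 29.7%, were called. In the second contrast the larger share was of higher genes here and of lower genes with the nearest gene. For LPS+HCl against LPS the shares were 24.5% and 18.8% (18.0% and 20.8% of all tested genes). For LPS+LA against LPS+HCl they were 20.6% and 24.1% (18.4% and 22.5%), and for LA against control 25.2% and 16.9% (20.4% and 17.9%). With libraries scaled by total counts, nearest genes split into 38 and 129, 103 and 42, 95 and 23 in the first 3 of these contrasts, with 60 higher in the fourth and 57 lower in the fifth. For LA against control, 54 genes were lower with sites from a stricter peak threshold. By the nearest gene start, an assignment chosen after seeing the data, 20 were lower. These counts come from other sets of genes than the 207 of the main assignment, where 35 were lower (16.9%, background 17.9%). Their numbers tested are not given here, so they cannot be set against that share, and the cause was not tested. Scaling by total counts turned 6 values of named genes: Cd9 to -0.31 and Atp2a2 to -0.35 and Rbm47 to -0.61 for LPS against control, Cd9 to 0.20 for LPS+HCl against LPS, and Vmp1 to 0.12 and Prkcb to 0.16 for LPS+LA against LPS. Over 1680 values of the 28 named genes under alternatives, 1609 kept their direction and side of the threshold, 42 lost the call, 23 gained one and 6 turned. Replicate numbers did not pair the libraries. With the replicate block, 60 nearest genes were higher and 70 lower for LPS+LA against LPS. The main fit gave 61 (29.5%) and 74 (35.7%) of 207, where 29.2% and 29.7% of all tested genes were called. Promoter windows of other lengths were not run. Peak lists without read counts limit what a missing peak can show.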
